A study of Mus musculus with 9 samples.

Results

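Nascent transcription in the livers of middle-aged mice was compared with that of young mice over all annotated genes that carried enough reads to be measured. Male C57BL/6N mice of 3 months (young) and 12 months (middle-aged) gave 3 libraries each, 1 whole liver per library, and a further 3 libraries from 18 months entered the fit only to share its estimate of the spread. The animals were untreated and fed freely. The assay was tNET-seq, which brings native elongating transcript sequencing to tissue. In it, RNA still held by RNA polymerase II (Pol II) on chromatin is isolated in the presence of alpha-amanitin and sequenced from its 3′ end, so that each read marks the position and strand of a polymerase. Genes of every type of GENCODE vM21 on chromosomes 1 to 19 were counted in sense over their whole span, and those with a mean of 50 or more reads over the 6 libraries were kept, which left 14963 of 51229 genes. The gene with the fewest reads inside this limit was Gm37499 with a mean of 50 reads, and the first gene outside it was Gm38223 with 49.8. The members include 8969 genes that a stricter selection would leave out, which takes only protein-coding genes longer than 2 kb with no protein-coding neighbour within 2.5 kb. The other 5994 members would pass it.

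Pol II starts transcription at a promoter, halts within the first bases of many genes until a kinase releases it, and then elongates through the gene body. The density of polymerase near the start therefore reflects initiation and release, and the density over the body reflects how much full-length transcription a gene has. In liver, most of this output comes from hepatocytes, which make plasma proteins, bile acids and lipids, and their metabolic genes follow diet, the time of day, glucocorticoids, growth hormone and sex.

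Sequencing depth was 37994442, 38233444 and 49307594 reads in the young livers, against 19123186, 50707801 and 30379853 in the middle-aged ones. Log2 levels of the members correlated between libraries of 1 age with r from 0.979 to 0.992 and between the ages with r from 0.966 to 0.981. The 12 hepatocyte markers, led by Alb, summed to between 22406 and 25585 normalised RPM (reads per 1000000 autosomal reads of the library, after TMM scaling) at 3 months and between 21881 and 26017 at 12 months, and none of them passed the test. Because whole tissue was used, fewer cells of a type and less nascent RNA per cell cannot be told apart in any of the values that follow.

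Over whole gene spans, 616 genes, or 4.12% of the 14963 tested, differed between 12 and 3 months (edgeR quasi-likelihood test, Benjamini-Hochberg adjusted p under 0.05). Transcription was higher at 12 months in 400 (2.67%) and lower in 216 (1.44%), while the median log2 change of all genes was -0.01. The change exceeded 1 on the log2 scale in 252 of the genes called and 2 in 65. The libraries of the 2 ages did not overlap in any of the genes called, nor in 4273 genes (28.6%) in all. Gene bodies, taken from 200 bases after the start to 200 bases before the end of the canonical transcript, gave 716 calls among 13485 genes (5.31%), of which 507 (3.76%) were higher and 209 (1.55%) lower. Of the 563 genes called over their span that also had a body tested, 538 were called there too. Leaving out the third 3-month library lowered the number of spans called to 145, all of them among the 616, and leaving out the second 12-month library lowered it to 161, with 159 of them shared. Without the first 3-month library 248 spans were called higher and 232 lower, so that the excess of rises nearly closed. No called span changed direction when a library was left out. For genes that the text names by rule, the span calls of Moxd1, Gm7631, Scara5, Gm34354, Cyp2b9, A4gnt, Gprc5b, Gm15401, Gm20275, Slc22a29, Ntrk2, Pdk4, Egr1, Aldh3a2, Acot3, Themis, Abcd2 and Ifi47 were kept in each of the 9 fits without 1 library, and every other such call was lost in at least 1 of them. The minimum of reads was reached through 1 age alone by some of the genes in the text, which could therefore be measured because they differed. These were Cyp2b9, A4gnt, Gprc5b, Gm15401, Gm20275, Slc22a29, Gm20125, Marco, Gm17530, Mrgprb11-ps, Cidec, Mogat1, Acot3, Cyp2a22, Igkc and Mir149 through 12 months, and Moxd1, Gm37435, Gm48199, Gm34354, Il17re, Lmx1a, BC023105, Cyp2c40, Hist1h3f and Krt83 through 3 months.

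The deepest fall was that of Moxd1, a copper-dependent monooxygenase related to dopamine beta-hydroxylase. Its span (chr10:24223517-24302790, plus strand) carried 23.9, 22.3 and 46.2 normalised RPM at 3 months and 0.171, 0.190 and 0.235 at 12 months, from 3866 reads in total at the younger age and 20 at the older. All 3 middle-aged livers therefore held almost no polymerase on a gene that was clearly transcribed in each young liver. The change was -7.24 (SE 0.50, adjusted p = 0.000326) and stayed between -7.42 and -6.82 whichever library was left out. Selenbp2, a selenium-binding protein listed among the male-biased genes of liver, followed with 90.0, 62.5 and 142.9 at 3 months and 4.11, 2.42 and 12.5 at 12 months. Its change of -3.97 (SE 0.83, adjusted p = 0.0326) did not overlap between the ages, but the spread within each age was wide and the call was lost in 5 of 9 fits without 1 library. Scara5, a receptor for ferritin, held 106, 82.8 and 176 against 14.2, 9.54 and 16.9, and fell by 3.18 on the log2 scale (SE 0.36, adjusted p = 0.00306).

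The largest rise was that of Cyp2b9, a steroid hydroxylase of the cytochrome P450 family that is typical of female liver and of nuclear receptor activation. The Cyp2b9 span (chr7:26173411-26210661, plus strand) had 0.320, 0.279 and 0.170 normalised RPM at 3 months against 23.2, 42.3 and 12.3 at 12 months. The 3 young livers were near silence, with 30 reads together, and the middle-aged livers held 2994, so the gene reached the minimum of reads only through the older age. Its change was 6.68 (SE 0.55, adjusted p = 0.000669), from 6.11 to 7.02 without 1 library at a time. Cyp4a14, an omega-hydroxylase of fatty acids induced by PPAR-alpha, rose from 7.07, 9.28 and 5.39 to 74.0, 124 and 64.4 without overlap (log2 change 3.60, SE 0.56, adjusted p = 0.0119). The call of Cyp4a14 was lost only without the third 3-month library.

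The promoters of the deepest fall, of the strongest fall among male-biased genes and of the strongest rise are shown because these genes lie at both ends of the range. Each line gives the 250 bases before the start site annotated by RefSeq (build GRCm38.p6, 5′ to 3′ on the strand of the gene). The intervals are chr10:24223267-24223516 for Moxd1, chr3:94693323-94693572 for Selenbp2 and chr7:26173159-26173408 for Cyp2b9, all on the plus strand. Capitals mark the only match to the motifs TTCNNNGAA (bound by STAT5), TGACNNNGC (the core of the antioxidant response element) and TATAAA (the TATA box, sense strand only), of which the first 2 were searched on both strands.
Moxd1: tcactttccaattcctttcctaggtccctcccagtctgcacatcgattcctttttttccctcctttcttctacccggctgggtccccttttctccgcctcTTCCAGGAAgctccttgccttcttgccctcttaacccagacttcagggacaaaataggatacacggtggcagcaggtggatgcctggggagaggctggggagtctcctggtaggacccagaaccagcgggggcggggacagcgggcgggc
Selenbp2: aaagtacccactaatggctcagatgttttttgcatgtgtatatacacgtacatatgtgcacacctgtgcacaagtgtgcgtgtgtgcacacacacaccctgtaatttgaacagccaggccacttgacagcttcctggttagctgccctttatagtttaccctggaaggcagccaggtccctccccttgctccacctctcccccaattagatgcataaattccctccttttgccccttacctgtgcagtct
Cyp2b9: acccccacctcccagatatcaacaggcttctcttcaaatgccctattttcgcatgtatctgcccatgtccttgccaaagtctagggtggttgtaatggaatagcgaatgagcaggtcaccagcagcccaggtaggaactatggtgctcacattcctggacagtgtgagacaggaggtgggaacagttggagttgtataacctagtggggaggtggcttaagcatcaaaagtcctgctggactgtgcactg
The match in Moxd1 starts 150 bases before the start site. Over the 250 bases, TTCNNNGAA was present in 8.13% of all 27025 genes of the table, in 7.38% of the 10197 members that matched it by symbol, in 8.01% of the 287 called higher and in 10.1% of the 129 called lower. For TGACNNNGC these shares were 11.5%, 13.8%, 12.5% and 14.7%, and for TATAAA 8.94%, 5.02%, 7.67% and 8.53%. A match describes the letters alone, and whether a factor binds there was not measured.

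Among the other large rises were A4gnt, a glycosyltransferase that adds N-acetylglucosamine to mucins, with 0.240, 0.0836 and 0.170 at 3 months against 2.91, 4.91 and 2.98 at 12 months, a change of 4.44 (adjusted p = 0.000669), and Gprc5b, an orphan G protein-coupled receptor, with 0.267, 0.418 and 0.447 against 4.51, 11.03 and 4.56, a change of 4.16 (adjusted p = 0.00165). These 2 genes also passed the minimum of reads only through the 12-month libraries, with 20 and 46 reads in total at 3 months. Dzip1l, a gene for a ciliary zinc finger protein that starts 7128 bases beyond A4gnt on the same strand and was named after its values were seen, rose as well, by 1.45 (adjusted p = 0.00894). Ntrk2, the receptor of brain-derived neurotrophic factor, rose from 2.13, 2.73 and 3.22 to 19.6, 28.5 and 32.5 (log2 change 3.32, adjusted p = 0.00519), with no overlap and no call lost in any fit without 1 library. Slc22a29 and Slc22a27, members of a family of organic anion transporters on chromosome 19, rose by 3.53 and 3.27 (adjusted p = 0.00263 and 0.0093). Slc22a29 too reached the minimum of reads only through the 12-month libraries, with 51 reads in total at 3 months. Marco, a scavenger receptor of macrophages, rose from 1.36, 0.753 and 1.15 to 4.45, 11.1 and 13.9 (log2 change 3.19, adjusted p = 0.0451). Marco too reached the minimum of reads only through the 12-month libraries, and its call was lost whenever 1 of the 6 compared libraries was left out.

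Further large falls lay in pseudogenes and noncoding genes. Gm7631, a pseudogene beside the UDP-glucuronosyltransferase gene Ugt2b35, had 25.8, 21.5 and 27.8 at 3 months and 2.80, 1.49 and 2.41 at 12 months (log2 change -3.55, adjusted p = 0.00357), and no library removed the call. Ugt2b35, which lies 9082 bases away on the same strand, moved the other way by 0.53 (adjusted p = 0.0391). The serpin pseudogene Serpina4-ps1 had 111, 63.4 and 277 against 17.9, 6.27 and 19.1 (log2 change -3.40, adjusted p = 0.0326). Young livers differed several-fold among themselves on this pseudogene, and the call was kept in 5 of 9 fits without 1 library. Gm48199, a long intergenic noncoding RNA under 2 kb long, fell by 3.22 on the log2 scale (adjusted p = 0.033) from 1.89, 1.67 and 8.12 to 0.628, 0.305 and 0.436, a call lost whichever 12-month library was left out. In 4 of the 10 largest falls most reads sat on 1 base. That base held 96.9% of the reads of the noncoding gene Gm34354, 81.3% of those of Lmx1a, a homeobox factor, 55.6% of those of Gm37435 and 53.7% of those of Il17re, a receptor of interleukin 17C. In this order the 4 genes fell by 3.11, 3.04, 3.60 and 3.07 on the log2 scale (adjusted p = 0.0101, 0.0156, 0.033 and 0.0279). Such positions weigh most in Gm34354 and Lmx1a, and what they hold was not tested. Gm37435 had 451 reads at 3 months and 26 at 12 months, so its other positions held fewer reads at 12 months too.

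**Figure D1:**
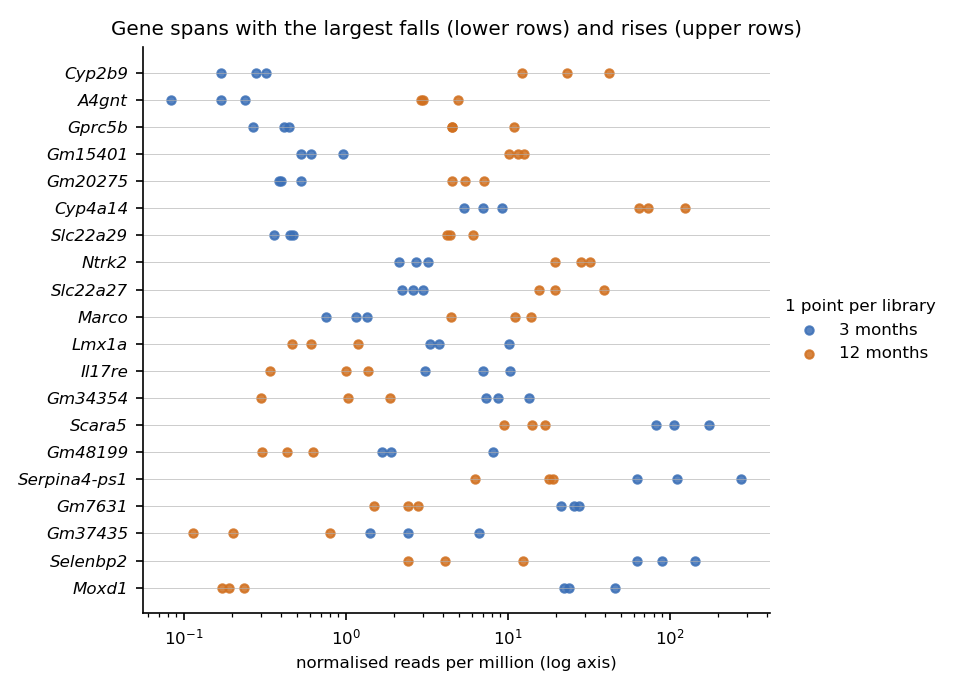
Normalised RPM (log axis) over the gene span in each of the 6 libraries, 1 point per library, for the 10 genes with the largest rises (upper rows) and the 10 with the largest falls (lower rows). The blue points of 3 months and the orange points of 12 months do not overlap in any of the genes, with the widest gaps on Cyp2b9 and Moxd1.

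Several rises were antisense to a gene that did not pass the test. Gm15401, on the strand opposite Tcf7l1, rose from 0.960, 0.613 and 0.533 to 11.6, 12.6 and 10.2 normalised RPM (log2 change 4.04, SE 0.21, adjusted p = 9.97e-05), while Tcf7l1, a repressor of Wnt target genes, had a change of -0.19 (adjusted p = 0.403). Gm20275, opposite Myo9a, rose from 0.400, 0.390 and 0.533 to 5.48, 7.16 and 4.56 (log2 change 3.68, adjusted p = 0.000576), and Myo9a, an unconventional myosin, had a change of -0.07 (adjusted p = 0.78). Both antisense genes reached the minimum of reads only through the 12-month libraries, with 83 and 54 reads in total at 3 months. Other long noncoding genes rose too. Gm20125 had a change of 2.95 (adjusted p = 0.0135) over a span of 189381 bases, and it too reached the minimum of reads only through the 12-month libraries. Gm12718, which was named by its promoter-proximal window, rose from 49.003, 86.0 and 79.0 to 392, 290 and 394 (log2 change 2.33, adjusted p = 0.0409).

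Genes known to differ between male and female liver were looked at in these animals, which were all male. Of 24 male-biased genes measured, 6 were called lower, beside 1.44% of all genes, and none higher, 21 had a negative change, and the median was -0.65 beside -0.01 over all genes. Besides Selenbp2, these were the fatty acid omega-hydroxylases Cyp4a12b (19.8, 21.2 and 26.9 against 4.45, 2.99 and 6.81, log2 change -2.27, adjusted p = 0.0247) and Cyp4a12a (log2 change -1.29, adjusted p = 0.0324), the oxysterol hydroxylase Cyp7b1 (log2 change -1.54, adjusted p = 0.0498), the complement component C6 (log2 change -1.27, adjusted p = 0.0225) and the glutathione transferase Gstp1 (log2 change -0.75, adjusted p = 0.0188). With at most 5 reads per position the change of Gstp1 was -0.45 and its call was lost, as it was on intronic positions. Cyp4a12a and Cyp4a12b are near-identical copies, and since only uniquely placed reads were kept, reads common to both are missing from each. Hsd3b5 and Slco1a1, a steroid dehydrogenase and a transporter that are strongly male in mouse liver, had changes of -2.05 and -1.23 with adjusted p = 0.134 and 0.104. Major urinary proteins, another male hallmark, had 13 measured genes with 11 negative changes and no call.

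Of 26 female-biased genes only 12 had enough reads, of which 5 were called higher, beside 2.67% of all genes, and 1 lower, with a median of 0.50 and 4 negative changes. A gene of this list that is silent in young males could enter only through a rise, so the count over those measured leans upward. Beside Cyp2b9, the genes called higher were Slc22a27, the peroxisomal thioesterase Acot3 (log2 change 2.83, adjusted p = 0.00813), the steroid hydroxylase and lyase Cyp17a1 (11.5, 9.87 and 7.48 against 24.9, 39.2 and 25.6, log2 change 1.65, adjusted p = 0.0106) and the peroxisomal fatty acid transporter Abcd2 (5.28, 5.46 and 3.94 against 11.2, 18.0 and 11.1, log2 change 1.47, adjusted p = 0.00951). Acot3 shared 66.6% of its reads with another annotated gene of the same strand. The female-biased Cyp2c40 went the other way, from 1.89, 1.09 and 4.52 to 0.514, 0.476 and 0.570 (log2 change -2.29, adjusted p = 0.042, kept in 5 of 8 alternatives and 2 of 9 fits without 1 library), and 23 of the 33 cytochrome P450 genes of families 1 to 3 had a positive change, with Cyp2a22 (log2 change 2.24, adjusted p = 0.0295) and Cyp2b9 called. Leaving out 1 library gave 1 to 6 P450 genes called higher, and Cyp2a22 was not called with the 6 compared libraries alone or with the replicate number as a block. Cyp2b9 and Cyp2a22 reached the minimum of reads only through 12 months, and Cyp2c40 only through 3 months. Each could therefore be measured because it differed. Of the 50 P450 genes of these families on chromosomes 1 to 19, 33 had enough reads. No male-biased gene was called without the third 3-month library or without the first or the second 12-month library. Of the female-biased genes, 3 to 5 were called higher whichever of the 6 libraries was left out.

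Of 22 lipogenic genes, 5 were called higher at 12 months and none lower, beside 2.67% of all genes higher. Of these 5, Cidec and Mogat1 reached the minimum of reads only through the 12-month libraries. In all 21 of the 22 had a positive change, with a median of 0.51. The largest was that of Cidec, a coat protein of lipid droplets, which rose from 0.827, 0.753 and 1.129 to 3.08, 9.41 and 4.46 (log2 change 2.67, adjusted p = 0.0176). Me1, the cytosolic malic enzyme that supplies NADPH, had 240, 275 and 189 against 427, 845 and 547 (log2 change 1.37, adjusted p = 0.0323), and Elovl6, which elongates palmitate, had 235, 236 and 213 against 481, 643 and 377 (log2 change 1.134, adjusted p = 0.0149). Every middle-aged liver exceeded every young one on these 3 genes, and the spread was widest at the older age. Mogat1, an acyltransferase of triglyceride synthesis, rose by 1.72 (adjusted p = 0.0156), and Acaca, the acetyl-CoA carboxylase at the start of fatty acid synthesis, by 0.57 with adjusted p = 0.0498, a call that no fit without 1 library kept. Fasn, Scd1 and Srebf1, the synthase, the main desaturase and the transcription factor of this pathway, had positive changes of 0.71, 0.51 and 0.77 that did not pass (adjusted p = 0.294, 0.372 and 0.114). Cholesterol synthesis had 20 genes measured, 14 positive, none called and a median of 0.16. No lipogenic gene was called without the third 3-month library.

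Among 24 genes of lipoproteins and lipases, 3 were called higher, beside 2.67% of all genes, and none lower, with a median of 0.22, and none was called without the second or the third 3-month library or the second 12-month library. These were Apoa4, an apolipoprotein of triglyceride-rich particles (31.3, 20.5 and 23.0 against 57.6, 102 and 69.7, log2 change 1.62, adjusted p = 0.0156), Angptl8, an insulin-responsive inhibitor of lipoprotein lipase that is shorter than 2 kb (18.6, 14.5 and 13.2 against 43.0, 77.7 and 33.4, log2 change 1.74, adjusted p = 0.0225), and Lipg, the endothelial lipase (log2 change 0.78, adjusted p = 0.0419). The next list held targets of PPAR-alpha, the receptor that drives fatty acid oxidation in fasting. Of 31 genes, 7 were called higher (3 without the third 3-month library) and 1 lower, beside 2.67% and 1.44% of all genes, 11 had a negative change and the median was 0.15. Of the 7, Acot3 reached the minimum of reads only through the 12-month libraries. Cyp4a14, Acot3, Vnn1, a pantetheinase (4.59, 3.74 and 3.28 against 11.4, 16.7 and 10.6, log2 change 1.75, adjusted p = 0.00981), Acaa1b, a peroxisomal thiolase (log2 change 1.20, adjusted p = 0.0116), Aldh3a2, a fatty aldehyde dehydrogenase (117, 124 and 101 against 238, 243 and 206, log2 change 1.01, adjusted p = 0.00269), Pdk4 and the fatty acid translocase Cd36 (log2 change 0.97, adjusted p = 0.0201) rose. Angptl4, another inhibitor of lipoprotein lipase, fell from 72.6, 58.7 and 83.5 to 32.0, 28.5 and 31.5 (log2 change -1.23, adjusted p = 0.0425), a call lost whichever of the 6 compared libraries was left out. None of the genes of mitochondrial beta-oxidation in the list passed. Cpt1a (-0.26), Acadm (-0.16) and Hadha (-0.20) had negative changes, beside quartiles of -0.16 and 0.14 over all genes.

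Among genes that glucocorticoids control, 1 library stood apart. Of 18 genes, 15 had a negative change, 3 were called lower and 2 higher, beside 1.44% and 2.67% of all genes, with a median of -0.46. The summed level of the list was 5209, 5325 and 8691 normalised RPM in the young libraries and 3896, 3443 and 3620 in the middle-aged ones, so the third 3-month library was far above the other two. Zbtb16, a zinc finger repressor, had 1731, 1268 and 2331 against 399, 406 and 634 (log2 change -1.89, adjusted p = 0.0154). Per1, a repressor of the circadian clock, had 33.1, 42.4 and 46.7 against 18.3, 20.4 and 18.0 (log2 change -1.11, adjusted p = 0.043), and Cebpd, a transcription factor of the acute phase, 5.84, 5.16 and 6.31 against 2.85, 3.31 and 3.45 (log2 change -0.84, adjusted p = 0.0324). Lpin1, a phosphatidate phosphatase, had 479, 497 and 2283 against 291, 266 and 294, with a change of -1.94 that did not pass (adjusted p = 0.105). The genes called higher were those of glucose output and fuel choice, G6pc, the glucose-6-phosphatase (236, 261 and 225 against 594, 435 and 401, log2 change 0.98, adjusted p = 0.0422), and Pdk4, the kinase that closes pyruvate dehydrogenase (9.44, 10.3 and 7.80 against 17.5, 19.7 and 16.9, log2 change 0.98, adjusted p = 0.00981). The call of G6pc was lost whichever of the 6 compared libraries was left out. None of the 3 falls was called without the third 3-month library, nor without the first or the second 12-month library. The part of time of day, feeding or handling in these values was not tested. Apart from Per1, none of the other 18 clock genes measured was called, with Arntl at -0.14, Dbp at 0.24 and Nr1d1 at -0.20.

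Of 26 genes of glutathione metabolism and targets of NRF2, the factor of the antioxidant response, 6 were called higher, beside 2.67% of all genes, and 1, Gstp1, lower, while 23 had a positive change and the median was 0.39. The changes called were modest: Nfe2l2, which encodes NRF2 itself, had 121, 117 and 108 against 161, 196 and 153 (log2 change 0.56, adjusted p = 0.0298), Hmox1, the heme oxygenase, 10.5, 9.39 and 8.10 against 13.1, 13.4 and 12.8 (log2 change 0.49, adjusted p = 0.0421), and Srxn1, a sulfiredoxin, 10.1, 7.97 and 9.03 against 13.6, 15.3 and 11.3 (log2 change 0.57, adjusted p = 0.0425). Gclc, the rate-limiting enzyme of glutathione synthesis, and the transferases Gsta3 and Gstm3 rose by 0.67, 0.63 and 0.81 (adjusted p = 0.0425, 0.0482 and 0.0425). None of these rises was called without the second or the third 3-month library, nor without the first or the second 12-month library.

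Immune genes did not move as 1 group. Interferon-responsive genes had 28 of 30 negative changes and a median of -0.43, and 2 were called lower. Among them was Ifi47, a GTPase (16.6, 12.7 and 13.9 against 9.13, 8.72 and 7.81, log2 change -0.75, adjusted p = 0.0103), whose reads all lie inside another annotated span of the same strand. All 6 genes of antigen presentation by MHC class II had negative changes, with a median of -0.54 and none called. Their summed level was 86.6 to 142.5 at 3 months and 74.1 to 85.5 at 12 months, which did not overlap. Of 16 lymphocyte markers only 6 had enough reads, and 3 of them rose, beside 2.67% of all genes, with 1 to 3 called whichever library was left out. They were the immunoglobulin constant regions Ighm (5.74, 5.41 and 4.32 against 14.6, 15.8 and 18.2, log2 change 1.66, adjusted p = 0.0213) and Igkc (1.15, 1.37 and 0.980 against 3.37, 4.13 and 5.40, log2 change 1.90, adjusted p = 0.0426), whose reads all lie inside another annotated gene and whose call was kept in 2 of 9 fits without 1 library, and the T cell gene Themis (7.58, 7.89 and 6.65 against 17.9, 31.6 and 31.8, log2 change 1.89, adjusted p = 0.00275). Igkc reached the minimum of reads only through the 12-month libraries. The 6 markers, Igkc among them, summed to 67.5 to 84.0 at 3 months and 96.3 to 109 at 12 months, while Cd3e, a T cell receptor subunit, had a change of 0.17 and Skap1, an adaptor of T cells, one of -0.94, neither called. Of 13 markers of Kupffer cells and macrophages, Marco and Lyz2, a lysozyme (8.62, 6.05 and 7.61 against 14.9, 18.5 and 17.7, log2 change 1.20, adjusted p = 0.018), rose, beside 2.67% of all genes. Neither was called without the second or the third library of either age, and Marco reached the minimum of reads only through the 12-month libraries. The Kupffer-specific markers Clec4f (-0.00) and Timd4 (0.09) and the summed level of the list, 293 to 340 against 263 to 340, did not separate the ages. No marker of endothelial, stellate or cholangiocyte lineage was called among 14, 13 and 4 measured.

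The immediate early gene Egr1, a zinc finger factor of growth signals, fell from 16.5, 11.8 and 17.2 to 3.99, 4.09 and 6.00 (log2 change -1.69, SE 0.19, adjusted p = 0.00314), which held in every fit without 1 library. It was the only one called of 18 immediate early genes, beside 1.44% of all genes lower and 2.67% higher, which is the background for each list in this paragraph, with Fos at -0.40 and Jun at -0.07. Of 25 genes of gluconeogenesis and glucose use, 3 were called higher (G6pc, Pdk4 and Irs1) and 1 lower (Pfkfb3), with a median of 0.00. Calls in other pathways were Il6ra, the interleukin 6 receptor (log2 change -0.78, adjusted p = 0.0201), among 28 acute phase and complement genes, Trib3 (log2 change -0.95, adjusted p = 0.0261), a pseudokinase of the stress response, Bag3 (log2 change 0.56, adjusted p = 0.0393), a chaperone partner, and Pfkfb3 and Irs1 (-0.74 and 0.54, adjusted p = 0.0327 and 0.0498), a regulator of glycolysis and the insulin receptor substrate. Of the 9 fits without 1 library, 5 kept the call of Il6ra, 4 those of Trib3 and Pfkfb3, 3 that of Bag3 and 2 that of Irs1. Ribosomal protein genes had 63 of 74 negative changes with a median of -0.16, splicing factors 45 of 54 with a median of -0.12, and nuclear genes of the respiratory chain 48 of 62 with a median of -0.11. On intronic positions the median of the respiratory chain turned to 0.04. Of the 3 lists only Ndufv1 and Cox5a, subunits of complex I and cytochrome oxidase, were called (-0.37 and -0.36, adjusted p = 0.0443 and 0.0475). Each of these calls was kept in 4 of 10 alternatives, and on intronic positions the changes were -0.11 and -0.10. The 33 regulators of pausing and early elongation, such as Cdk9 (-0.32), Nelfa (-0.23) and Supt5 (-0.03), had a median of -0.09 and no call. Urea cycle and amino acid genes (33 measured, median -0.04), cell cycle genes (20, median -0.11), small nucleolar RNA hosts (28, median -0.09) and fetal genes (7) gave no call either.

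**Figure D2:**
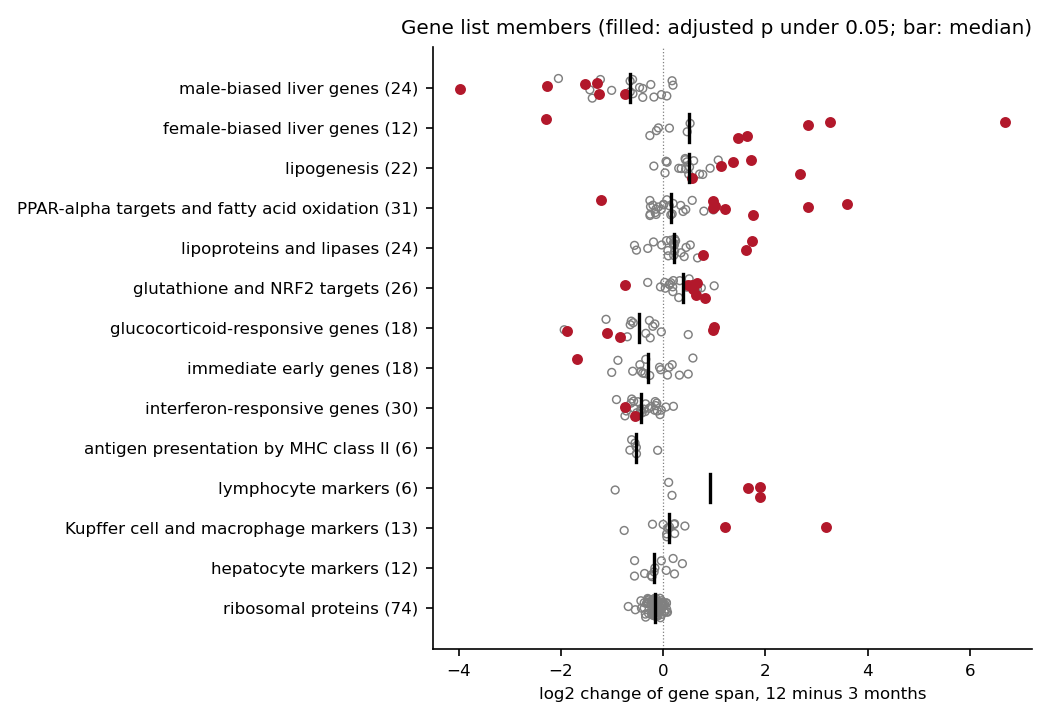
Log2 change of the gene span, 12 minus 3 months, for the measured members of 14 gene lists, with their number in parentheses; filled points passed the test, open points did not, and the black bar is the median of the list. Male-biased genes lie left of 0 with a median of -0.65, lipogenic and female-biased genes right of it with 0.51 and 0.50, and ribosomal protein genes gather close to 0.

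The start of genes changed more evenly than their bodies. The promoter-proximal window, 200 bases either side of the start of the canonical transcript, was lower at 12 months in 8073 of 9555 genes (84.5%), with a median log2 change of -0.40, whereas 6204 of 13485 gene bodies were lower, with a median of 0.02. By the test of each gene, 220 windows (2.3%) were called, of which 194 (2.03%) were lower and 26 (0.272%) higher, and the 2 ages did not overlap in 3670 windows (38.4%). Over the alternatives run, the share of windows lower at 12 months lay between 68.8% and 88.4% and the median change between -0.49 and -0.33. The number of windows called was less stable, from 42 without the third 3-month library to 727 with the 6 compared libraries alone.

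The density of polymerase per base, as RPKM, gave the same picture in each library. In the promoter-proximal window the median of log2(RPKM + 0.1) over 9145 genes was 1.55, 1.33 and 1.31 at 3 months and 0.88, 1.19 and 0.97 at 12 months (1.40 ± 0.13 against 1.01 ± 0.16, SD, n = 3, exact permutation p = 0.1, two-sided, the smallest that 3 against 3 libraries allow). In the gene body it was 0.22, 0.15 and 0.20 against 0.15, 0.34 and 0.25, a difference of 0.06 (exact p = 0.5), and around the end site the difference was -0.02 (exact p = 0.9). Windows thus separated the ages without overlap and bodies did not. These densities are scaled to the autosomal reads of each library, so windows and bodies were compared relative to each other and not in absolute amount. Transcription that left the promoter in antisense, within 700 bases upstream, was lower too, with -0.93, -1.05 and -1.13 against -1.60, -1.16 and -1.36 (difference -0.33, exact p = 0.1, and -0.11 with a pseudocount of 1). At 12 months these antisense values rose with sequencing depth, and the deepest library of each age had -1.13 (3 months) and -1.16 (12 months). The part of depth in them was not tested. The pausing index (PI), the density of the window over that of the body, had medians of 2.38, 2.19 and 2.10 at 3 months and 1.53, 1.74 and 1.62 at 12 months over 8400 genes with an index of at most 10 (2.22 ± 0.14 against 1.63 ± 0.10, SD, n = 3, exact p = 0.1). At 12 months the medians of the window, the body and the PI also ranked by sequencing depth. At 3 months the deepest library had the lowest window median and PI. In libraries thinned to the smallest of the 6, the median window change was -0.42. The part of depth in these medians was not tested. The ratio of exonic to intronic density in the body (2.61 ± 0.22 against 2.49 ± 0.14, SD, n = 3, exact p = 0.6) and that of the early to the late part of the body (log2 ratio 0.11 against 0.13, exact p = 0.8) overlapped between the ages.

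**Figure D3:**
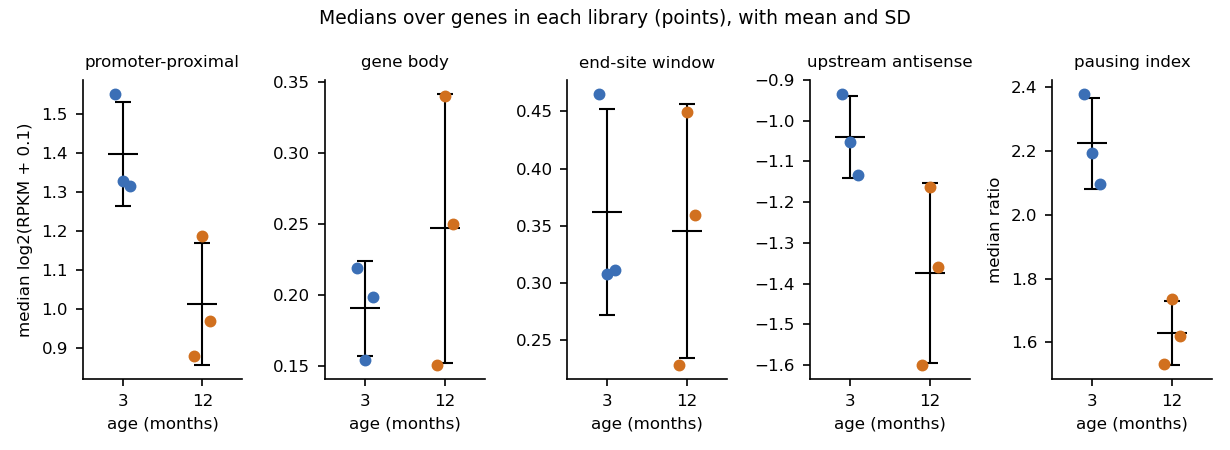
Median over genes in each library (points, blue for 3 months and orange for 12 months) of density in 4 regions on the log2(RPKM + 0.1) scale and of the pausing index as a ratio, with the mean as a long bar and the SD as error bars. The axes do not start at 0. The ages are separate for the promoter-proximal window, the upstream antisense strand and the pausing index (2.22 against 1.63), and overlap for the gene body and the end site.

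The profile around the start was lower at 12 months on both sides of it. Over 7652 genes with no other gene in the window, density relative to the gene body peaked 50 to 99 bases after the start in all 6 libraries, at 7.20, 6.35 and 6.08 at 3 months and 4.03, 4.79 and 4.37 at 12 months. Over the first 100 bases the mean was 5.91 ± 0.57 against 3.90 ± 0.43 (SD, n = 3, exact p = 0.1), and over the next 100 bases it was 2.66 against 2.18 (exact p = 0.1). From there to 1000 bases after the start it was 1.12 against 1.07, a smaller gap but still without overlap between the ages (exact p = 0.1). The position of the peak was therefore shared and its height differed. Sense density before the start was lower as well, at 0.446 against 0.314 in the last 200 bases and 0.0928 against 0.0679 from 1000 to 200 bases before it (exact p = 0.1 for each). On the antisense strand the 700 bases before the start held 0.393 ± 0.017 against 0.281 ± 0.034 of the body density (SD, n = 3, exact p = 0.1). In each of these regions before the start, at the peak and over the first 100 bases after the start, the 12-month libraries ranked by sequencing depth. On the antisense strand they had 0.247, 0.281 and 0.315 from the smallest to the largest library, and over the first 100 bases 3.48, 3.90 and 4.34. The part of depth in these values was not tested.

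**Figure D4:**
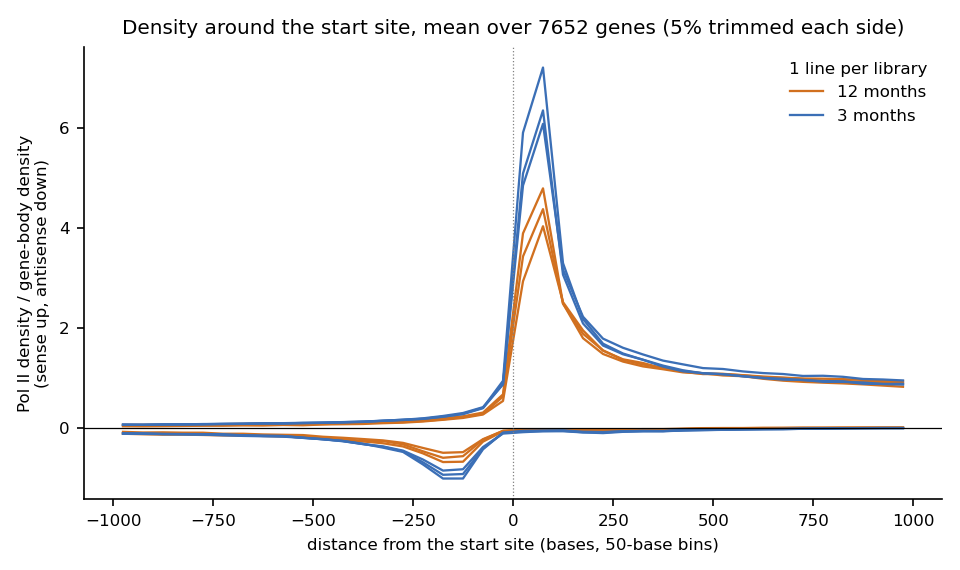
Density of Pol II around the start site relative to the gene body, as a trimmed mean over 7652 genes in 50-base bins, with sense density above 0 and antisense density below, 1 line per library. All 3 libraries of 3 months (blue) peak above 6 in the bin of bases 50 to 99, and all 3 of 12 months (orange) peak below 5, while the lines converge within the gene.

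Windows were also set beside spans in the genes called, against 84.5% of all windows lower and a median of -0.41 for the window over the body in all genes. Of the 400 spans called higher, 217 had a window tested, and 90 of these windows were lower at 12 months, with a median window change of 0.10 beside a median span change of 0.67 in the same genes. Of the 97 spans called lower with a window tested, 94 had a lower window, with medians of -0.95 for the window and -0.78 for the span. In all, 57 of 314 spans called with a window tested had that window called too, beside 220 of all 9555 windows (2.3%). The bases of the window after the start also lie in the span, so window and span share reads and their changes are not independent. Lipogenic genes, with a median span change of 0.51, had a median window change of -0.08, and the male-biased genes had -0.73 over 16 windows, all 16 of them lower.

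The strongest single windows were small in reads. That of Ift74, a subunit of the intraflagellar transport complex, had 16, 38 and 86 reads at 3 months and 1, 0 and 3 at 12 months (log2 change -4.67, SE 0.63, adjusted p = 0.000103), and that of Pde4d, a phosphodiesterase of cyclic AMP, 14, 27 and 108 reads against 0, 4 and 2 (log2 change -4.23, SE 0.64, adjusted p = 0.000286). The third 3-month library held most of these reads, and both calls were kept without it. The Pde4d span itself rose, from 126, 162 and 179 to 278, 438 and 343 normalised RPM (log2 change 1.18, adjusted p = 0.0149), whereas that of Ift74 had a change of -0.29 that did not pass (adjusted p = 0.307). The Selenbp2 window, with 196, 164 and 297 reads against 1, 16 and 32, fell with its span (log2 change -3.42, adjusted p = 0.000103). Krt83, a hair keratin, fell by 3.27 on the log2 scale (adjusted p = 0.00858), but 90.8% of the reads of its span sat on 1 base, and neither DESeq2 nor the fit without the third 3-month library called it. Windows that rose were led by Cyp4a14 (0.187, 0.335 and 0.213 against 3.20, 6.04 and 2.51, log2 change 4.02, adjusted p = 1.99e-05) and Serpinb1a, an inhibitor of neutrophil elastase (0.267, 0.112 and 0.170 against 0.970, 1.504 and 1.04, log2 change 2.71, adjusted p = 0.00028), whose span rose as well (log2 change 2.51, adjusted p = 0.000986). Both windows reached the minimum of 10 reads only through the 12-month libraries, and those of Ift74 and Pde4d only through the 3-month libraries. The span of Krt83 also reached its minimum of reads only through the 3-month libraries. With at most 5 reads per position, the windows of Pde4d and Krt83 had too few reads left to be tested.

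When the change of the window was tested against that of the body of the same gene, 56 of 9145 genes (0.612%) were called, and in all 56 the window lost relative to the body. The sign was negative in 7957 genes (87.0%), with a median of -0.41. Of the 56, 41 were also called as windows, 10 as bodies and 8 as spans. The PI of Pde4d was 6.42, 10.2 and 28.1 at 3 months and 0, 0.368 and 0.414 at 12 months (log2 change of the ratio -5.34, SE 0.60, adjusted p = 7.98e-05), and that of Ift74 was 12.2, 32.8 and 51.4 against 2.61, 0 and 3.34 (-4.36, adjusted p = 0.00324), a call lost with DESeq2 and without the second 12-month library. Tmem268, a gene for a membrane protein, had a PI of 105, 117 and 153 against 8.81, 12.6 and 34.3 (-2.86, SE 0.35, adjusted p = 0.000185) with a span that did not differ (0.03, adjusted p = 0.912). The window of Tmem268 held more reads than its whole span, so part of them lie before the start of the gene and outside the span. With at most 5 reads counted per position, the change of the window over the body in Tmem268 was -0.81 (adjusted p = 0.122) and the call was lost. Pde4d had too few window reads left under this limit to be tested. Npas2, a partner of the clock factor Arntl, had 27.1, 112 and 140 against 50.3, 4.86 and 9.84, which overlap, and its call (-2.53, adjusted p = 0.0497) was kept in 5 of 9 alternatives. The number of calls of this kind rested on the libraries of the shared fit, with 662 without the third 18-month library and 6 without the second or the third 3-month library or the second 12-month library. The direction of the median did not depend on them.

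Most windows were lower in protein-coding genes (7392 of 8438, median -0.41) and in long noncoding genes (464 of 642, median -0.32). The same held in genes the stricter selection keeps (3377 of 3889, median -0.43) and leaves out (4696 of 5666, median -0.37). Differences between classes were not tested. By length of the span the median was -0.33 from 2 to 10 kb, -0.42 from 10 to 50 kb, -0.44 from 50 to 200 kb and -0.34 above that. It was -0.17 in the 433 genes under 2 kb and -0.11 in 119 pseudogenes. Models of the class TEC, which await experimental support and mostly lie inside other genes, were the exception. Only 145 of their 354 windows were lower, with a median change of 0.09, and the median density over these windows was 0.60, 0.59 and 0.63 at 3 months and 0.65, 0.82 and 0.77 at 12 months on the log2(RPKM + 0.1) scale (exact permutation p = 0.1, the smallest possible). Of the 482 TEC models with a span tested, 410 had 20% or more of their reads at positions shared with another gene.

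Over whole spans the classes were called at unlike rates, beside 4.12% overall. Long noncoding genes were called in 100 of 1347 (7.42%, 66 higher and 34 lower), with 47 of 517 long intergenic and 32 of 409 antisense genes, protein-coding genes in 465 of 12294 (3.78%), pseudogenes in 15 of 244 and TEC models in 9 of 482. Spans over 200 kb were called in 86 of 887 (9.7%, 65 higher). Genes outside the stricter selection were called in 329 of 8969 (3.67%, 205 higher and 124 lower) and those inside it in 287 of 5994 (4.79%). Of 1176 genes under 2 kb, 18 were called higher and 30 lower, with a median of -0.14. With at most 5 reads per position the calls were 21 higher and 8 lower of 944 with a median of 0.00, and with positions of 1 gene only they were 9 higher and 8 lower of 500 with a median of -0.20. Among those with under 20% of reads shared with another gene of the same strand, the largest rises besides Angptl8 were Gm17530, a TEC model of 472 bases (0.320, 1.12 and 0.660 against 1.54, 3.18 and 3.42, log2 change 2.00, adjusted p = 0.0489) 7223 bases from Pgm3, which also rose (log2 change 1.43, adjusted p = 0.00583), and the pseudogene Mrgprb11-ps (log2 change 1.11, adjusted p = 0.0169). The largest falls besides Gm48199 were Gm36198, with 94.6% of its reads on 1 base (log2 change -2.70, adjusted p = 0.0472, kept in 5 of 9 alternatives), and the processed pseudogene BC023105 (log2 change -1.89, adjusted p = 0.036).

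**Figure D5:**
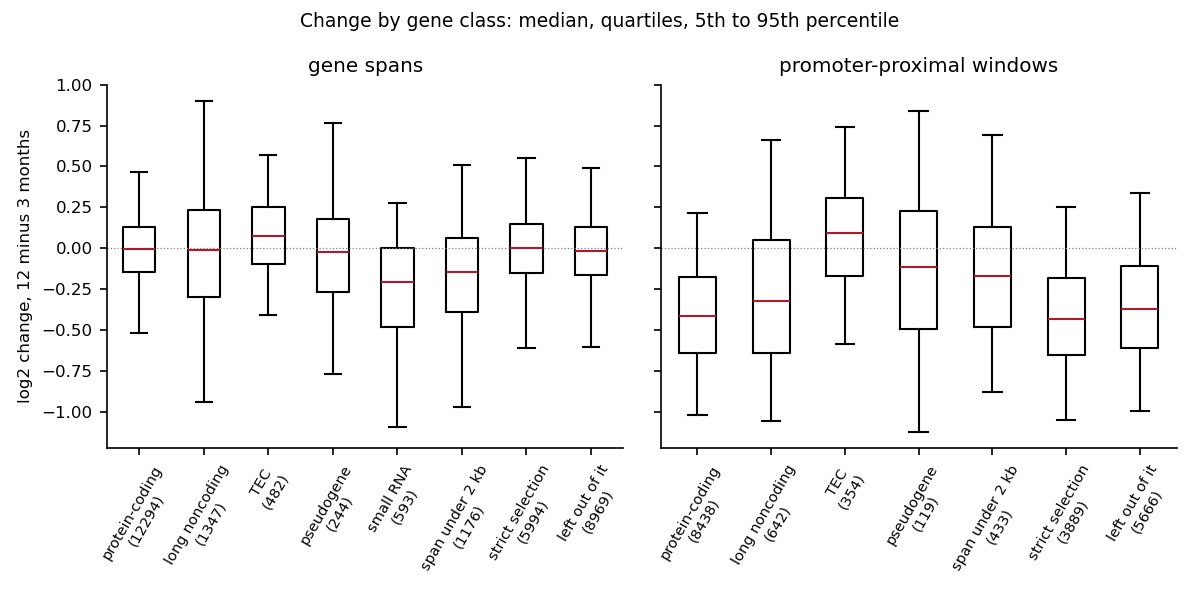
Log2 change, 12 minus 3 months, by gene class for gene spans (left) and promoter-proximal windows (right), with the number of genes in parentheses; boxes give the median (red) and quartiles, and whiskers the 5th to 95th percentile. Span medians lie near 0 except for small RNA genes (-0.21) and genes under 2 kb (-0.14), which become 0.09 and 0.00 with at most 5 reads per position, whereas window medians lie below 0 in every class but TEC (0.09). Under that limit short loci can hold few reads, whatever their level.

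Of 593 small RNA genes measured, 24 were called lower, beside 1.44% of all genes, and 1 higher, while 438 had a negative change (median -0.21). These were 15 small nucleolar RNAs of 294, 6 microRNAs lower and 1 higher of 165, 1 of 78 small nuclear RNAs, 1 of 18 ribosomal RNAs and 1 of another class. Such loci collect the 3′ ends of processed RNA as well as polymerase, and 23 of the 25 called shared 20% or more of their reads with a gene of the same strand, as did 455 of the 593 measured. Changes of the hosts ran from -1.08 to 1.69, and of these Gpc1 and AA465934 passed the test. Snora33, which guides pseudouridylation, had 53.6, 47.7 and 58.1 against 23.9, 28.8 and 26.5 (log2 change -1.01, SE 0.10, adjusted p = 0.00142), while its host Rps12 had a change of -0.15 (adjusted p = 0.855). Snora81 in Eif4a2 had a change of -0.63 (adjusted p = 0.0241) and the host one of -0.28 (adjusted p = 0.546). The small RNAs named here were chosen after their values were seen.

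The values of small RNA genes changed with the number of reads counted per position. Of the 25 called, 5 had more than 50% of their reads on 1 base, as had 595 of all members, of which 26 were called, all lower. With at most 5 reads counted per position, 1 of 396 small RNA genes was called and their median became 0.09. Snora33 then had a change of -0.07 (adjusted p = 0.927), which ends its call, and Snora81 turned to 0.19. The highest count at a single position lay between 4352 and 5396 in all 9 libraries, although their totals ran from 15003713 to 50707801 reads, and the share of autosomal reads left by this limit was 64.3% to 67.2% at 3 months and 66.3% to 72.3% at 12 months (exact p = 0.2). Whether this reflects the RNA or the counting of piled reads was not tested.

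Mature sequences of RefSeq (build GRCm38.p6) are shown for the called genes Mir144, Mir101a, Mir101b, Mir19a and Mir149, since the loci are known by the products they make. The other called microRNA genes, Mir1949 (log2 change -1.43, adjusted p = 0.00373) and Gm49346 (log2 change -0.60, adjusted p = 0.0279), were not looked up. Capitals mark the seed, bases 2 to 8, which pairs with target messages.
miR-144-3p: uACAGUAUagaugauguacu
miR-101a-3p: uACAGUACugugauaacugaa
miR-101b-3p: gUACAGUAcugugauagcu
miR-19a-3p: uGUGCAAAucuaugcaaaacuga
miR-149-5p: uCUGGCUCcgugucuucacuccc
The first 6 of the 7 seed bases are the same in miR-144-3p and miR-101a-3p, and RefSeq starts miR-101b-3p 1 base earlier, so that its seed is shifted. Mir144 (chr11:78073005-78073070), a microRNA of erythroid cells, had no host and fell from 12.3, 13.9 and 12.4 to 4.28, 3.22 and 5.13 (log2 change -1.62, SE 0.29, adjusted p = 0.0201), with 43.0% of its reads on 1 base. The 3 erythroid markers measured, the globin genes, had changes from -0.26 to 0.00, and their summed level was 20.5 to 25.1 at 3 months and 17.6 to 20.8 at 12 months. Mir19a in the Mir17hg cluster fell from 5.20, 6.66 and 6.52 to 2.17, 2.57 and 2.45 (log2 change -1.34, adjusted p = 0.0149) beside a host change of -0.40 (adjusted p = 0.107). Mir101a and Mir101b, on different chromosomes, both fell by 0.65 on the log2 scale (adjusted p = 0.0304 and 0.0324), but with at most 5 reads per position they turned to 0.14 and 0.25. Their spans of 83 and 97 bases had means of 1526 and 2655 reads, more than this limit can hold, so the limited values cannot decide. The calls of Mir101a and Mir101b were lost whichever of the 6 compared libraries was left out, and of the 9 fits without 1 library 5 kept that of Mir144 and 7 that of Mir19a. Mir149 rose from 0.720, 0.418 and 0.703 to 2.45, 2.91 and 1.58 (log2 change 1.91, adjusted p = 0.0103) inside Gpc1, a heparan sulfate proteoglycan, which rose from 12.6, 11.8 and 11.4 to 36.2, 45.1 and 34.0 (log2 change 1.69, SE 0.12, adjusted p = 0.000498). Mir144, Mir19a and Mir149 had too few reads left to be tested with at most 5 reads per position.

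Replication-dependent histone genes, which are short and lack introns, had 24 of 27 negative changes and a median of -0.37. Of all 205 protein-coding genes under 2 kb, 153 had a negative change, with a median of -0.17. In genes this short the promoter-proximal window takes up a large part of the span. The 16 histone windows tested had a median of -0.44 and the 10 histone bodies tested one of -0.18. Of the 2 histone genes called lower, Hist1h3f had 2.77, 2.51 and 1.92 against 0.742, 1.03 and 1.11 (log2 change -1.28, adjusted p = 0.0385), and was named after its values were seen. All genes had 1.44% called lower, and the call of Hist1h3f was lost with the replicate number as a block and whichever of the 6 compared libraries was left out. The 20 cell cycle genes gave no call, with 6 positive and 14 negative changes and a median of -0.11. Cdk1 (-0.80) and Mki67 (-0.49) lay below the 25th percentile of that list (-0.34).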

How the data were processed

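Nascent transcription was measured by tNET-seq in whole livers of male C57BL/6N mice of 3, 12 and 18 months, 3 libraries per age, each labelled an independent biological replicate. The authors trimmed reads to 50 bases, aligned them to GRCm38, kept uniquely placed reads and reduced each to its 5′ end, so that the deposited values are raw counts of reads per position and strand. Their processing notes name cutadapt 1.13, STAR 2.7.3a and bedtools 2.29.2; how molecular barcodes were treated is not given in the sources used here. Totals ran from 15003713 to 50707801 reads per library.

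Counts were summed in sense over the genes of GENCODE vM21 on chromosomes 1 to 19. Spans and bodies needed a mean of 50 reads over the 6 libraries of 3 and 12 months, windows 10. All 9 libraries entered edgeR 4.0.16 (glmQLFit, glmQLFTest, TMM factors, R 4.3.3), with the contrast of 12 minus 3 months, Benjamini-Hochberg adjustment over all genes tested and a threshold of 0.05. Changes are log2. Pausing was tested as the interaction of region with age. Library medians were compared by exact two-sided permutation in scipy 1.17.1. The script was tested on simulated data. No replicate number paired the libraries by the labels. Near-identical copies (Mup, Cyp2c, Cyp4a12, Gsta, Selenbp and Slc22a genes) lose reads that place equally on several copies.

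Members and the 34 gene lists were chosen with earlier results of these data known. Genes named were the 10 largest rises and 10 largest falls among called spans with no overlap between the ages and under 20% of reads shared with another gene of the same strand, the 3 largest each way among genes that are not protein-coding and among those under 2 kb, up to 4 called genes per list by adjusted p, and for windows and pausing the 4 largest each way with 20 or more window reads. Any other gene was named after its values were seen. Some genes that met the rule are not reported here. Alternatives were DESeq2 1.42.0, other read minimums, libraries or scaling, a limit of 5 reads per position, positions of 1 gene only, thinned libraries, intronic positions, other start sites and windows, a pseudocount of 1, the stricter gene selection and the replicate number as a block.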

Additional observations from a re-analysis of the deposited data

How the results depend on the processing

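Gene spans called (616) numbered 1252 with DESeq2 and 1146 with no minimum of reads, and bodies (716) 1180 and 1089. Of the 616, 614 were called by DESeq2, 532 with only the 6 libraries compared and 537 of the 590 still tested with at most 5 reads per position, where 10 of the 590 changed direction, as did 2 of 523 on intronic positions. Windows called (220) numbered 727 with the 6 libraries alone, 120 with DESeq2, 395 with no minimum, 91 with a minimum of 40 reads, 135 in thinned libraries, 142 with library totals and 57 from the start site to 100 bases after it. Changes of the window over the body called (56) numbered 662 with the 6 libraries alone, 15 with DESeq2, 321 with no minimum, 4 with a minimum of 40 reads and 146 with at most 5 reads per position. Leaving out 1 library gave 145 to 691 spans, 173 to 779 bodies, 42 to 685 windows and 6 to 662 changes of the window over the body. The lowest counts came without the third 3-month library for spans and windows, and without the second 12-month library for bodies. The cause of these differences was not tested.

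Same-numbered libraries of the 2 ages deviated with correlations of -0.09, -0.34 and 0.13. With 3 libraries per age these cannot decide whether libraries of the same number belong together. With the replicate number as a block, 436 spans, 545 bodies, 353 windows and 201 changes of the window over the body were called, and 384 of the 616 spans were kept. These were fewer spans and bodies than without the block, but more windows and more changes of the window over the body. Upstream antisense density fell by 0.11 with a pseudocount of 1, and the median pausing index fell by 0.74 in the stricter gene selection. With at most 5 reads per position Mir101a turned to 0.14, Mir101b to 0.25, Snora81 to 0.19 and Lars2 (-0.50 as counted in full) to 0.13, and in intronic positions Lars2 turned to 0.12. The small RNA genes among these are too short to hold their full reads under this limit, so their limited values cannot decide. With 3 libraries per age, the exact test of library medians could not give a p under 0.1, and genes of few reads, above all in windows, were the least certain.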
